A study of Mus musculus with 12 samples.

Results

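Lung tumours from mice given any of 3 treatments were compared with tumours from control mice. All 12 libraries of the series enter the comparison, 9 treated and 3 control, and each treated group was given equal weight. Genes of interest were those for which all 9 treated libraries lay above, or all 9 lay below, all 3 control libraries. A gene that met this and also passed the test of treated against control is called shared here.

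The tumours were induced in engineered mice that model small cell lung cancer (genotype Rb1/Trp53/MycT58A, called RPM), and gene expression was measured by RNA-seq of poly(A)-selected RNA from dissected frozen tumour. All groups, controls included, carried floxed Rb1 and Trp53 and an inducible Myc T58A allele. Each was infected through the trachea at 8 weeks of age with Ad5CGRP-Cre, an adenovirus that expresses Cre recombinase from the promoter of the neuroendocrine gene for CGRP. Recombination is therefore limited to infected cells with an active promoter, and the surrounding lung, stroma and immune cells keep intact alleles. Anti-PD-1 mice received 10 mg/kg of the antibody into the peritoneum for 4 weeks. Entinostat mice received 15 mg/kg by mouth daily for 28 days, and combination mice received both agents. For the combination libraries the treatment tag gives the antibody without entinostat, and the titles, which give both, were followed. Methylcellulose and a rat IgG2a isotype antibody served as controls, but the labels do not say which of them the 3 control libraries had. All libraries carry the same batch label. Whether each library is from a separate mouse is not said in the labels. The column headers give each library a different number, but what these numbers stand for is not stated. The p-values therefore cover the spread between samples only, which may be technical.

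Entinostat inhibits class I histone deacetylases, enzymes that remove acetyl groups from histones and mostly act within repressive complexes. Anti-PD-1 blocks PD-1, an inhibitory receptor best known for its role on T cells. Small cell lung cancer cells are neuroendocrine, divide rapidly, and in this model are driven by MYC, a transcription factor that promotes ribosome production, protein folding, metabolism and division. Genes that move in the same direction under agents so unlike may share a response or may owe their shift to the control libraries, and since all contrasts use the same 3 control libraries, these cannot be told apart by the design.

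Before the results, the libraries were compared with one another. Total counts were 34.8 ± 2.84 M in treated and 47.8 ± 6.81 M in control libraries, where M is 1000000 counts (SD, n = 9 and 3). The treated range of 31.3 to 40.47 M did not overlap the control range of 40.53 to 54.0 M (exact permutation test over 220 splits, two-sided p = 0.00455, the smallest it can give; adjusted p = 0.0909 over 20 library values). The abundant structural RNAs Rpph1, Rn45s and Rmrp took 21.0% ± 6.41 of counts in treated and 11.4% ± 3.08 in control libraries, again without overlap (exact permutation p = 0.0318, adjusted 0.145). Control library 1 lay far from the other 11 along principal component 1 (27.2% of the variance). Neurod1, a transcription factor that defines a neuroendocrine subtype of this cancer, was looked at to check the label, outside the rule for named genes. It ranged from 9.92 to 149 CPM in treated libraries and stood at 490.2, 5.65 and 10.8 CPM in controls 1, 2 and 3. Control 1 thus had the highest Neurod1 of the 12 libraries, and the gene did not pass the test (edgeR adjusted p = 0.328). The neuroendocrine regulator Insm1 was present in every library, at 39.1 to 83.4 CPM in treated and 64.3 to 101.03 CPM in control libraries. Chromogranin A (Chga) stood at 30.6 to 109 CPM in treated and 51.9 to 129.7 CPM in control libraries, so that both defining markers were found in all 12 libraries.

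**Figure D1:**
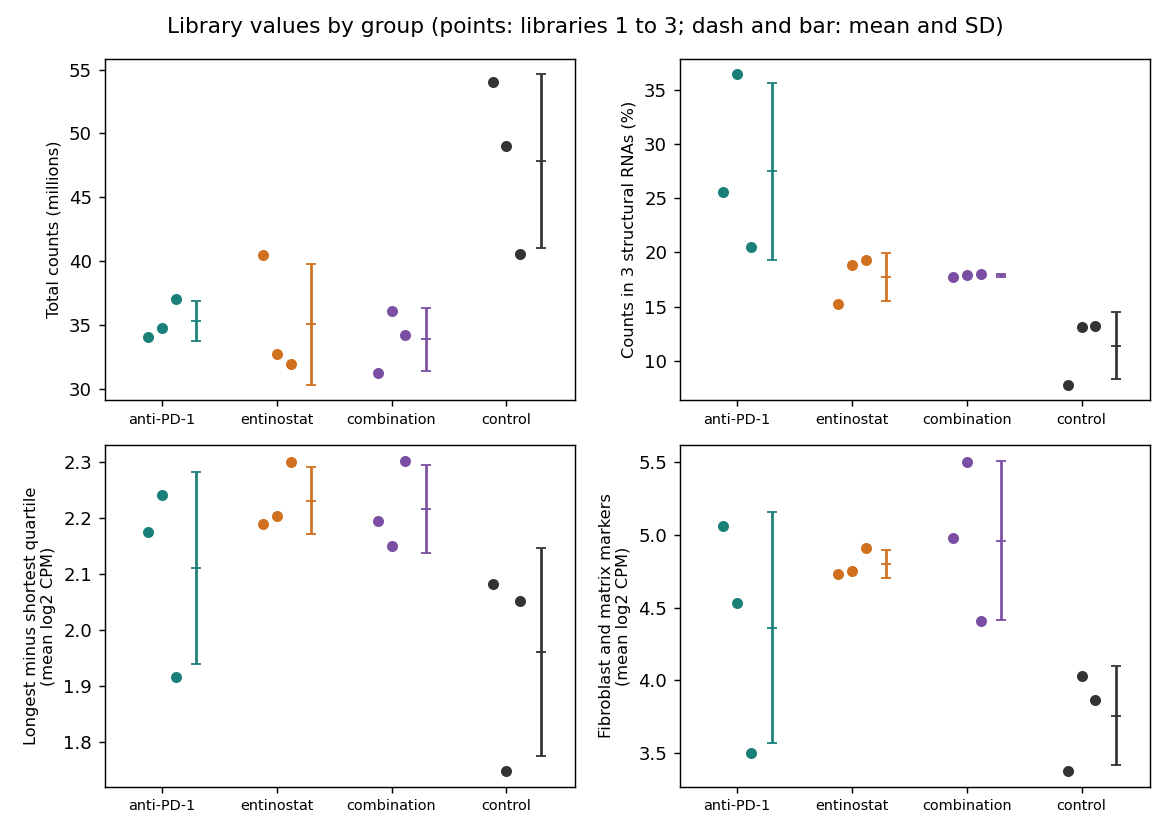
Total counts in M (1000000 counts), the percent of counts in Rpph1, Rn45s and Rmrp, the length contrast (mean log2 CPM of the quartile of genes with the longest transcripts minus that with the shortest) and the mean log2 CPM of fibroblast and matrix markers, for each library by group; dashes with bars are the group mean and SD over 3 libraries. Totals are lower and structural RNA shares higher in all 9 treated libraries than in the 3 controls, while the length contrast and the fibroblast score overlap.

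The deleted genes and the Myc allele were examined first. Rb1 stood at 26.6 to 81.7 CPM (median 50.9) in the treated libraries and 30.1, 49.6 and 46.1 CPM in the control libraries, and Trp53 at 8.40 to 19.0 CPM (median 13.3) in the treated libraries and 15.8, 13.5 and 20.0 CPM in the control libraries; both ranges overlapped and neither gene passed (adjusted p = 0.607 and 0.361). Gene-level counts cannot separate the deleted exons, or tumour cells from other cells, so this does not check recombination. Myc stood at 79.1 to 273 CPM (median 183) in the treated libraries and 91.8, 50.6 and 99.7 CPM in the control libraries. It rose overall (log2 fold change 1.10, SE 0.27, edgeR adjusted p = 0.0254) but is not a shared gene, since anti-PD-1 library 3 lay inside the control range. Its mean was 115 ± 44.9 CPM with anti-PD-1, 233 ± 45.9 with entinostat, 192 ± 30.5 with the combination and 80.7 ± 26.3 in control tumours (SD, n = 3 each). Without control 1 or without control 2 the Myc call was lost.

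Treated tumours differed from control tumours at 2064 of 17426 tested genes, or 11.8% (edgeR quasi-likelihood test, Benjamini-Hochberg adjusted p under 0.05). Of these, 452 were higher (2.59% of genes tested) and 1612 lower (9.25%). For 1613 genes (9.26%) the 9 treated libraries all lay on one side of the 3 controls, above for 472 (2.71%) and below for 1141 (6.55%). Both conditions held for 1233 genes (7.08%), the shared genes, of which 274 were higher (1.57%) and 959 lower (5.50%). Just inside the one-sided condition lay Atf7, at 19.34 to 58.0 CPM in treated and 18.8 to 19.33 CPM in control libraries, and Erp29, at 36.6 to 62.37 CPM in treated and 62.38 to 95.0 CPM in control libraries. Just outside lay Lrfn5, at 0 to 1.47 CPM in treated libraries and with no count in the 3 control libraries, so that the ranges met at 0.

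The same criterion was applied to each group of 3 libraries against the other 9. The anti-PD-1 libraries stood apart at 211 genes (1.21%), the entinostat libraries at 72 (0.413%), the combination libraries at 313 (1.80%) and the control libraries at 1613 (9.26%). No treated group had a gene with an adjusted p under 0.05 against the mean of the other 3 groups in edgeR, although 1374 (7.88%), 1331 (7.64%) and 2959 (17.0%) genes for anti-PD-1, entinostat and the combination had an unadjusted p under 0.05, as did 5068 (29.1%) for control. The contrast of control with the mean of the 3 treated groups is the comparison of treated with control turned round, and so gives the same 2064 genes (11.8%). Among the 3 treated groups, edgeR's F test called 0 genes, with 1496 (8.58%) at an unadjusted p under 0.05. On the same question limma voom called 0 and DESeq2 called 289. With upper quartile factors the combination had 6 genes against the other groups and control 1309, and with library totals only the combination had 124 and control 1671; anti-PD-1 and entinostat had 0 under both.

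**Figure D2:**
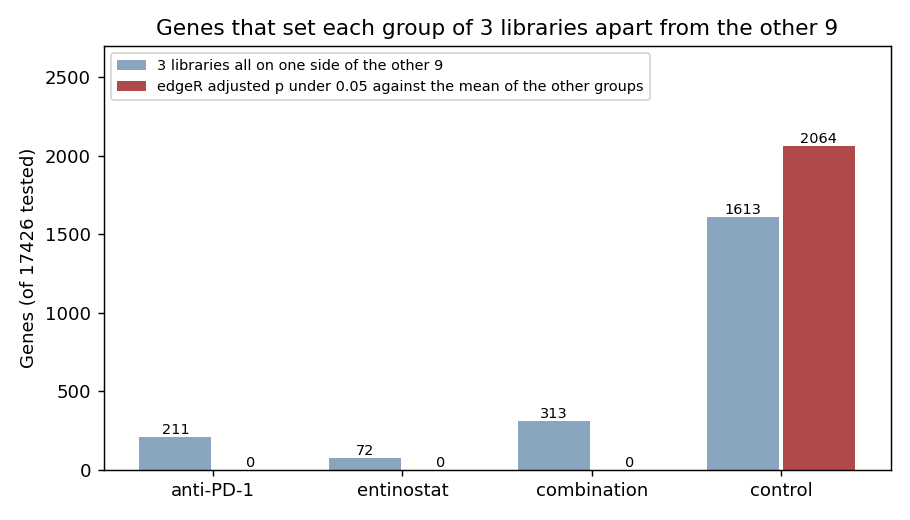
Number of genes, of 17426 tested, that set each group of 3 libraries apart from the other 9: blue bars count genes whose 3 libraries all lie above or all below the other 9, red bars genes with an edgeR adjusted p under 0.05 against the mean of the other 3 groups. The bars for the treated groups reach 72 to 313 and 0, and those for control 1613 and 2064.

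The shifts of the shared genes are given for each treated group. The higher genes had a median log2 fold change against control of 1.12 (anti-PD-1), 1.44 (entinostat) and 1.51 (combination). For the lower genes the medians were −0.73, −0.88 and −0.97 in the same order, against 0.02 for the 3 groups together over all genes tested. Anti-PD-1 had the smallest shift of the 3 groups for 183 of 274 higher and 695 of 959 lower genes, and the combination the largest for 180 and 624. At an unadjusted p under 0.05, 59 of the 274 higher genes (21.5%) and 103 of the 959 lower genes (10.7%) differed among the treated groups, and none did after adjustment. The shift was at least 2-fold in each of the 3 groups for 135 higher genes and 90 lower ones. Since the same control libraries enter all 3 contrasts, these shifts are not independent of one another. Control 1 was the control library farthest from the treated ones for 125 of 274 higher genes (45.6%) and 600 of 959 lower genes (62.6%). Without control 1, 748 genes were called and 668 were shared, of which 525 were among the 1233. Without control 2, 934 of the 1233 remained shared, and 918 without control 3. Without the combination group 380 genes were shared, and 590 without the entinostat group. With fewer libraries the one-sided condition is easier to meet. It held for 14.0% of tested genes without control 1, against 9.26% with all libraries.

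Ciliary genes were among the leading shared rises. Evc and Evc2 encode partner proteins at the base of the primary cilium, the sensory projection through which Hedgehog signals pass. Evc2 had 3.94 to 24.6 CPM (median 16.5) in the treated libraries and 2.60, 1.08 and 0.582 CPM in the control libraries. No treated library reached down to the control range, which the definition of a shared gene requires (log2 fold change 3.34, SE 0.60, edgeR adjusted p = 0.00729). Evc had 3.38 to 23.4 CPM (median 14.0) in the treated libraries and 2.43, 0.931 and 0.709 CPM in the control libraries (log2 fold change 3.21, SE 0.66, edgeR adjusted p = 0.0124), again without overlap. Both kept their call in all 12 leave-one-out fits, and Evc lost it once the alveolar score entered as a covariate. Their shifts were 2.75 (anti-PD-1), 3.62 (entinostat) and 3.65 (combination) for Evc2, and 2.64 (anti-PD-1), 3.35 (entinostat) and 3.64 (combination) for Evc.

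Evc and Evc2 lie head to head on chromosome 5 with start sites 1597 bases apart in the reference, so the windows from 250 bases before to 50 bases after each start are shown to let the pair be compared. The sequences are from RefSeq on build GRCm38.p6, while the counts are on mm9 per the submitters' processing notes. Capitals mark a GC box (GGGCGG) or a CCAAT box (CCAAT, here read from the other strand as ATTGG), with both strands searched.
Evc (chr5:37336832-37337131, minus strand): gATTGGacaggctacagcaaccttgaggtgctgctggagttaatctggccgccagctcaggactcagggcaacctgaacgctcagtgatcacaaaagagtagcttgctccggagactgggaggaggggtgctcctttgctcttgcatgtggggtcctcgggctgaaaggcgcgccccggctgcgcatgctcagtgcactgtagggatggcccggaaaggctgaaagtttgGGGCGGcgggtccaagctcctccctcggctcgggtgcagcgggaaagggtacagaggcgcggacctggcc
Evc2 (chr5:37338228-37338527, plus strand): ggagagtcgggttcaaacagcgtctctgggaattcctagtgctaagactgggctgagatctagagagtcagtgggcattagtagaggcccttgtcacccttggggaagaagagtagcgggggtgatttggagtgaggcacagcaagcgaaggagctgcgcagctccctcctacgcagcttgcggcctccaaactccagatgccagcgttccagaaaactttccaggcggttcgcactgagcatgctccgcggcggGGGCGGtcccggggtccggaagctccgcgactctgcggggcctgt
Each window held 1 GC box, which 35.7% of 32851 windows of this length hold, and Evc held 1 CCAAT box, present in 37.4%. Neither held TATAAA (13.6% of windows), the canonical E-box CACGTG bound by MYC and related factors (7.15%) or the AP-1 motif TGANTCA (7.81%). These matches describe the windows and were not related to the counts.

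Of 24 cilium and Hedgehog genes tested, 4 rose and 0 fell (16.7% higher, against 2.59% of all genes). Beside the pair, these were Gli1, a transcription factor and target of Hedgehog signalling, and Boc, a Hedgehog co-receptor. Gli1 had 0.353 to 9.78 CPM (median 3.19) in the treated libraries and 0.607, 0.538 and 0.380 CPM in the control libraries (log2 fold change 2.62, SE 0.58, edgeR adjusted p = 0.0155). Its treated and control ranges overlapped, and its shifts were 0.78 (anti-PD-1), 3.25 (entinostat) and 3.83 (combination). Boc had 10.7 to 106 CPM (median 34.9) in the treated libraries and 6.83, 9.25 and 12.5 CPM in the control libraries (log2 fold change 2.17, SE 0.56, edgeR adjusted p = 0.0281), also with overlap, since anti-PD-1 library 1 lay below control 3. Without control 1, 3 members of the list rose, and 2 without the combination group, and Boc lost its call in 6 of the 12 fits that left out a library. Ift57, a subunit of the particle that carries cargo along the cilium, was not on the list and was among the genes with the largest falls. It had 10.7 to 24.6 CPM (median 18.1) in the treated libraries and 27.5, 27.6 and 98.8 CPM in the control libraries (log2 fold change −1.53, SE 0.36, edgeR adjusted p = 0.0200), and without control 3 the call was lost.

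The imprinted pair Plagl1 and Hymai came next. Plagl1 encodes a zinc finger transcription factor that restrains growth, and Hymai is a non-coding transcript from the same promoter region, with start sites 13 bases apart. Plagl1 had 4.66 to 21.7 CPM (median 13.1) in the treated libraries and 2.29, 2.81 and 1.37 CPM in the control libraries (log2 fold change 2.57, SE 0.53, edgeR adjusted p = 0.0126). Hymai had 0.988 to 5.86 CPM (median 2.97) in the treated libraries and 0.411, 0.455 and 0.152 CPM in the control libraries (log2 fold change 3.09, SE 0.65, edgeR adjusted p = 0.0135). By the rule that named them, neither gene overlapped between the groups. Without control 1 Plagl1 lost its call. Strand use in the counting, and how reads of overlapping genes were shared, are not stated in the labels, so the 2 rows cannot be taken as separate evidence. Because the windows share 287 bases, that of Plagl1 is shown for both, with capitals for GC boxes (here read as CCGCCC on the printed strand) and the E-box CACGTG.
Plagl1 (chr10:13090582-13090881, plus strand): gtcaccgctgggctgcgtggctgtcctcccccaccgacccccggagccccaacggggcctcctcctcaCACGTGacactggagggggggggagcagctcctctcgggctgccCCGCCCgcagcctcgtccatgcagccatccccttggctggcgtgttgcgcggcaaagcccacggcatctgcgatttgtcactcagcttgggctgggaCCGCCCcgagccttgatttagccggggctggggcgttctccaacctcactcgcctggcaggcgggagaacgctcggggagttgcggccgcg

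Egfr, Nrg1, Plekha7 and Frem1 were also among the named rises. Egfr, the epidermal growth factor receptor, had 5.01 to 18.7 CPM (median 8.22) in the treated libraries and 2.04, 2.90 and 2.15 CPM in the control libraries (log2 fold change 2.12, SE 0.47, edgeR adjusted p = 0.0154), and its shift was nearly equal in the 3 groups: 2.13 (anti-PD-1), 2.22 (entinostat) and 2.01 (combination). Nrg1, a ligand of the related receptors ErbB3 and ErbB4, had 1.41 to 4.42 CPM (median 2.37) in the treated libraries and 0.842, 0.455 and 0.152 CPM in the control libraries (log2 fold change 2.33, SE 0.53, edgeR adjusted p = 0.0184). Egfr lost its call without control 1, and Nrg1 without control 2. Plekha7, a protein of the adherens junction, had 6.41 to 52.6 CPM (median 14.9) in the treated libraries and 1.25, 3.87 and 3.14 CPM in the control libraries (log2 fold change 2.65, SE 0.50, edgeR adjusted p = 0.00866). Frem1, an extracellular matrix protein of basement membranes, had 5.36 to 26.7 CPM (median 10.9) in the treated libraries and 1.90, 0.952 and 3.39 CPM in the control libraries (log2 fold change 2.44, SE 0.59, edgeR adjusted p = 0.0225). All 4 genes separated the groups completely, which the rule that named them requires. Plekha7 kept its call in all 12 leave-one-out fits, and Frem1 lost it without control 1 and without control 2.

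Runx3, a Runt family transcription factor active in lymphocytes and epithelia, had 1.24 to 9.86 CPM (median 4.69) in the treated libraries and 0.431, 0.807 and 0.683 CPM in the control libraries (log2 fold change 2.80, SE 0.53, edgeR adjusted p = 0.00829), and its shifts were 1.99 (anti-PD-1), 2.78 (entinostat) and 3.64 (combination). Gareml, a relative of an adaptor of growth factor receptor signalling, had 2.46 to 12.9 CPM (median 4.25) in the treated libraries and 1.23, 0.662 and 0.835 CPM in the control libraries (log2 fold change 2.44, SE 0.53, edgeR adjusted p = 0.0151). Both stood above the controls in each treated library, which the rule requires, and kept their call in all leave-one-out fits. A pair of potassium channel genes completed the 12 named rises. Kcna4, a voltage-gated channel, had 0.282 to 17.1 CPM (median 2.62) in the treated libraries and 0.157, 0.207 and 0.152 CPM in the control libraries, from at most 10 counts in a control library (log2 fold change 4.36, SE 1.12, edgeR adjusted p = 0.0286). Kcnma1, the large-conductance calcium-activated channel, had 2.93 to 21.1 CPM (median 7.64) in the treated libraries and 2.56, 1.92 and 1.59 CPM in the control libraries (log2 fold change 2.23, SE 0.57, edgeR adjusted p = 0.0277). Each lost its call when any 1 control library was left out.

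**Figure D3:**
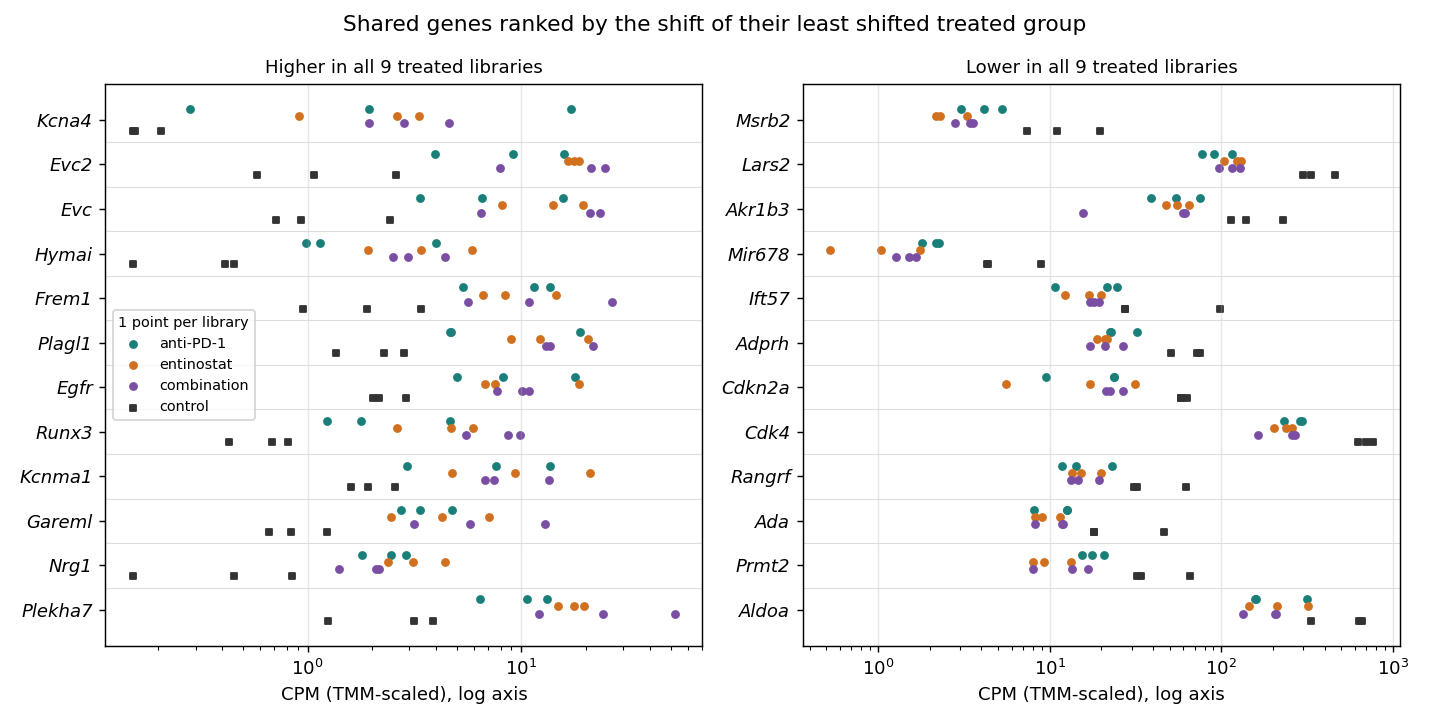
CPM of the 12 higher (left) and 12 lower (right) named shared genes in each of the 12 libraries, on a log axis, 1 point per library; circles are the 3 treated groups and black squares the controls. By the rule that named these genes, the squares in each row lie wholly to the left (higher genes) or right (lower genes) of all circles. The gap is wide for Cdk4 and Lars2 and narrow for Ift57 and Aldoa.

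Among the named falls, 3 concern the G1 phase of the cell cycle and nucleotide supply. Cdk4, the cyclin D kinase that inactivates RB, had 164 to 296 CPM (median 256) in the treated libraries and 763, 622 and 696 CPM in the control libraries. The highest treated library stood at 0.477 of the lowest control (log2 fold change −1.51, SE 0.16, edgeR adjusted p = 0.00191), and the shifts were −1.35 (anti-PD-1), −1.58 (entinostat) and −1.60 (combination). Cdkn2a, which encodes the CDK4 inhibitor p16 and the p53 activator ARF, had 5.56 to 31.5 CPM (median 22.5) in the treated libraries and 63.4, 58.6 and 58.2 CPM in the control libraries (log2 fold change −1.58, SE 0.37, edgeR adjusted p = 0.0204). Ada, adenosine deaminase, had 8.16 to 12.6 CPM (median 11.5) in the treated libraries and 46.6, 18.1 and 18.1 CPM in the control libraries (log2 fold change −1.41, SE 0.29, edgeR adjusted p = 0.0119). Cdk4 kept its call in all 12 leave-one-out fits, and Cdkn2a and Ada lost it without control 1.

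The Cdk4 window is shown because Cdk4 is a classical MYC target and the only 1 of the 6 windows read that held more than 1 E-box. Capitals mark the E-box CACGTG, found 4 times, and the GC box as CCGCCC, found 3 times with 2 of them overlapping by a base.
Cdk4 (chr10:127063285-127063584, plus strand): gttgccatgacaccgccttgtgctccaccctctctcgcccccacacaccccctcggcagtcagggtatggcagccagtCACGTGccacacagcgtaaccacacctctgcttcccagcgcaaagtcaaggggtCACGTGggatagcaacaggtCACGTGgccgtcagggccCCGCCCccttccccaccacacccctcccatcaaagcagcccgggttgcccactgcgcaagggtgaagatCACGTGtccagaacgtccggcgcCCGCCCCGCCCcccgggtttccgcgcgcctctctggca

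The other named falls included several enzymes. Lars2, the mitochondrial leucyl-tRNA synthetase, had 76.7 to 130.3 CPM (median 115) in the treated libraries and 458, 300.1 and 333 CPM in the control libraries and the smallest adjusted p of the 24 genes (log2 fold change −1.75, SE 0.16, edgeR adjusted p = 0.00127). Part of the mouse gene resembles mitochondrial ribosomal RNA, so its counts may include reads from elsewhere. Msrb2, a mitochondrial methionine sulfoxide reductase, had 2.17 to 5.26 CPM (median 3.31) in the treated libraries and 19.7, 7.41 and 11.1 CPM in the control libraries (log2 fold change −1.96, SE 0.30, edgeR adjusted p = 0.00446). Adprh, which removes ADP-ribose from arginine, had 17.2 to 32.1 CPM (median 21.5) in the treated libraries and 75.6, 51.2 and 71.7 CPM in the control libraries (log2 fold change −1.55, SE 0.18, edgeR adjusted p = 0.00201). Prmt2, an arginine methyltransferase, had 8.02 to 20.7 CPM (median 13.4) in the treated libraries and 65.3, 34.0 and 32.2 CPM in the control libraries (log2 fold change −1.73, SE 0.26, edgeR adjusted p = 0.00421). These 4 were called in all fits that left out a library.

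Akr1b3, aldose reductase, had 15.6 to 75.0 CPM (median 55.1) in the treated libraries and 230.0, 114 and 139 CPM in the control libraries (log2 fold change −1.62, SE 0.34, edgeR adjusted p = 0.0128), but its counts differed by at most 4 from those of the predicted gene Gm6644 in each library, so the same reads may appear in both rows. Rangrf, a cofactor of the nuclear transport GTPase Ran, had 11.8 to 23.1 CPM (median 14.7) in the treated libraries and 61.9, 32.1 and 30.8 CPM in the control libraries (log2 fold change −1.37, SE 0.26, edgeR adjusted p = 0.00817). The row for the microRNA gene Mir678 had 0.527 to 2.26 CPM (median 1.66) in the treated libraries and 8.92, 4.37 and 4.33 CPM in the control libraries (log2 fold change −1.96, SE 0.37, edgeR adjusted p = 0.00817); poly(A) libraries do not measure mature microRNAs, and these reads may belong to a longer transcript. Each of these 3 lost its call without control 1. Of the 24 named genes in all, 12 were called in all 12 fits that left out a library, and 10, 4 and 3 lost their call without controls 1, 2 and 3.

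Beyond single genes, lists for growth, protein folding and energy supply held many of the falls. Over 11 such lists, 493 genes were tested, of which 185 fell and 2 rose, and 107 were shared and lower (11.2% of the 959 shared lower genes). Over all genes tested, 959 of the 1612 that fell were shared (5.50% of genes), to be set beside the shared counts of each list. The count of each list was also taken without control 1, without the combination group and with the mean of 14 fibroblast and matrix markers as a covariate, a choice made after the data were seen. This mean was higher on average in treated libraries, so as a covariate it takes up part of the contrast. Of 26 MYC target and ribosome biogenesis genes, 8 fell and 0 rose (30.8% lower, against 9.25% of all genes), all 8 were shared, and the median log2 fold change was −0.59, against 0.02 over all genes. This stood beside the higher Myc transcript given above. The nucleolar methyltransferase Fbl had 64.1 to 90.8 CPM (median 75.3) in the treated libraries and 181, 119 and 128 CPM in the control libraries (log2 fold change −0.91, SE 0.14, edgeR adjusted p = 0.00443), and the cap-binding factor Eif4e had 106 to 219 CPM (median 123) in the treated libraries and 260.2, 272 and 257 CPM in the control libraries (log2 fold change −0.98, SE 0.19, edgeR adjusted p = 0.0106). Neither gene overlapped between the groups. Nop58, a core protein of box C/D snoRNPs, had 157 to 235 CPM (median 209.8) in the treated libraries and 508, 273 and 263 CPM in the control libraries (log2 fold change −0.77, SE 0.19, edgeR adjusted p = 0.0236). The other shared falls were Cdk4, Nme1, Ran, Ldha and Mrto4. Without control 1, 3 members of the list fell, against 2 without the combination group and 1 with the fibroblast covariate.

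Cell division genes were among the falls. Of 26 cell cycle genes 13 fell and 0 rose (50% lower, median −0.66), and 9 were shared. Cdk1, the kinase that starts mitosis, had 83.7 to 175 CPM (median 110.5) in the treated libraries and 279.6, 249.8 and 293 CPM in the control libraries (log2 fold change −1.23, SE 0.17, edgeR adjusted p = 0.00278). Cdc20, which activates the anaphase-promoting complex, had 66.3 to 121 CPM (median 90.8) in the treated libraries and 185, 141 and 185 CPM in the control libraries (log2 fold change −0.96, SE 0.15, edgeR adjusted p = 0.00461), and the mitotic kinase Aurka had 37.7 to 77.8 CPM (median 52.4) in the treated libraries and 148, 94.3 and 86.8 CPM in the control libraries (log2 fold change −1.0, SE 0.18, edgeR adjusted p = 0.00729). The groups did not overlap for these 3. The replication helicase subunits Mcm2, Mcm3, Mcm4, Mcm5 and Mcm7 fell as well; Mcm7 had 167 to 196 CPM (median 186) in the treated libraries and 277, 235 and 257 CPM in the control libraries (log2 fold change −0.47, SE 0.11, edgeR adjusted p = 0.0231). Pcna, the sliding clamp of DNA replication, fell (log2 fold change −1.05, SE 0.17, edgeR adjusted p = 0.00554) but overlapped, since anti-PD-1 library 3, at 421 CPM, lay above control 3, at 419 CPM. Its means were 309.9 ± 99.97 CPM with anti-PD-1, 201 ± 22.5 with entinostat, 184 ± 7.50 with the combination and 466 ± 75.2 in control tumours (SD, n = 3 each). Clustered histone genes, expressed in S phase, had 25 of 77 lower and 0 higher (32.5% lower, median −0.67), with 13 shared. Hist1h4d had 230.1 to 459 CPM (median 323) in the treated libraries and 661, 650.3 and 714 CPM in the control libraries (log2 fold change −1.09, SE 0.15, edgeR adjusted p = 0.00340), and Hist1h1e had 327 to 489 CPM (median 396) in the treated libraries and 794, 711 and 911 CPM in the control libraries (log2 fold change −0.99, SE 0.15, edgeR adjusted p = 0.00441). Histone genes have near-identical copies, so single members are uncertain. Most mRNAs of clustered histone genes lack a poly(A) tail, and the libraries were poly(A)-selected. Their counts are therefore not a direct measure of S-phase expression, and the part of selection was not tested. Without control 1, 5 cell cycle and 12 histone genes fell, against 3 and 10 without the combination group and 1 and 1 with the fibroblast covariate.

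Several chaperones of both compartments fell. Of 20 cytosolic chaperones and heat shock genes 10 fell and 0 rose (50% lower, median −0.72), 8 of them shared. Hspa8, the constitutive Hsp70, had 1321 to 2381 CPM (median 1751) in the treated libraries and 4219, 3909 and 3487 CPM in the control libraries (log2 fold change −1.13, SE 0.14, edgeR adjusted p = 0.00220). Hsp90ab1, the constitutive Hsp90, had 1109 to 1957 CPM (median 1427) in the treated libraries and 4309, 2768 and 2707 CPM in the control libraries (log2 fold change −1.14, SE 0.19, edgeR adjusted p = 0.00572), and Cct8, a subunit of the chaperonin that folds actin and tubulin, had 175 to 275 CPM (median 239.5) in the treated libraries and 629.6, 449 and 462 CPM in the control libraries (log2 fold change −1.15, SE 0.15, edgeR adjusted p = 0.00266). Controls lay above each treated library for all 3, and 7 of the 10 falls were subunits of that chaperonin. In the endoplasmic reticulum 6 of 24 genes fell and 0 rose (25.0% lower, median −0.54), 5 of them shared. Ppib, a prolyl isomerase, had 142 to 241 CPM (median 179) in the treated libraries and 539, 386 and 325 CPM in the control libraries (log2 fold change −1.23, SE 0.17, edgeR adjusted p = 0.00313), and the lectin chaperone Calr had 198 to 261 CPM (median 223) in the treated libraries and 531, 419.9 and 348 CPM in the control libraries (log2 fold change −0.94, SE 0.14, edgeR adjusted p = 0.00370). Pdia3, a disulfide isomerase that acts with Calr, had 174 to 215 CPM (median 196) in the treated libraries and 397, 323 and 291 CPM in the control libraries (log2 fold change −0.79, SE 0.13, edgeR adjusted p = 0.00519), and its shifts were nearly the same in the 3 groups, −0.77 (anti-PD-1), −0.81 (entinostat) and −0.79 (combination). Without control 1, 6 cytosolic and 3 endoplasmic reticulum genes fell, against 2 and 3 without the combination group and 2 and 0 with the fibroblast covariate.

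Proteasome, mitochondrial and splicing genes also fell, though many of them overlapped between the groups. Of 38 proteasome subunits 21 fell and 0 rose (55.3% lower, median −0.81), but 7 were shared, against 959 of 1612 falls over all genes. Psma4, a subunit of the core ring, had 84.3 to 188 CPM (median 111) in the treated libraries and 343, 288 and 221 CPM in the control libraries (log2 fold change −1.29, SE 0.18, edgeR adjusted p = 0.00313), with shifts of −0.85 (anti-PD-1), −1.51 (entinostat) and −1.5 (combination). Psmc4, a subunit of the ATPase ring, had 53.9 to 91.4 CPM (median 66.4) in the treated libraries and 198, 123 and 121 CPM in the control libraries (log2 fold change −1.10, SE 0.19, edgeR adjusted p = 0.00584). Among 77 mitochondrial ribosomal proteins 35 fell and 0 rose (45.5% lower, median −0.60), with 22 shared; Mrpl40 had 19.0 to 28.0 CPM (median 25.0) in the treated libraries and 57.1, 49.9 and 45.9 CPM in the control libraries (log2 fold change −1.07, SE 0.15, edgeR adjusted p = 0.00308). Of 82 nuclear-encoded respiratory chain subunits 37 fell and 0 rose (45.1% lower, median −0.62), with 16 shared. Their median shift was −0.23 (anti-PD-1), −0.73 (entinostat) and −0.86 (combination). Atp5b, the catalytic subunit of ATP synthase, had 338 to 924 CPM (median 592) in the treated libraries and 1619.8, 1649.8 and 1236 CPM in the control libraries (log2 fold change −1.29, SE 0.20, edgeR adjusted p = 0.00448), and the complex I subunit Ndufa13 had 31.1 to 59.8 CPM (median 43.4) in the treated libraries and 107, 107 and 78.9 CPM in the control libraries (log2 fold change −1.14, SE 0.15, edgeR adjusted p = 0.00276). Of 23 Sm and LSm proteins of the spliceosome 12 fell and 0 rose (52.2% lower, median −0.60), 6 of them shared; Snrpf had 36.2 to 66.6 CPM (median 47.9) in the treated libraries and 90.5, 95.5 and 102 CPM in the control libraries (log2 fold change −0.96, SE 0.15, edgeR adjusted p = 0.00466). Without control 1, 6 proteasome, 6 mitochondrial ribosomal, 18 respiratory chain and 6 spliceosome genes fell. Without the combination group 4, 2, 11 and 4 fell, and with the fibroblast covariate 0, 2, 6 and 1, in the same order. The list medians stayed between −0.46 and −0.74 under all 3 settings.

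Cytosolic ribosomal proteins gave mixed results. Of 82 tested, 12 fell and 2 rose (14.6% lower, against 9.25% of all genes), with a median of −0.11 that turned to 0.08 with upper quartile factors. Rpl7 had 919.5 to 1439 CPM (median 1212) in the treated libraries and 2595, 2251 and 2405 CPM in the control libraries (log2 fold change −1.0, SE 0.15, edgeR adjusted p = 0.00441) and Rplp0, of the ribosomal stalk, had 1257 to 2359.5 CPM (median 1543) in the treated libraries and 2647, 3438 and 3299.8 CPM in the control libraries (log2 fold change −0.91, SE 0.19, edgeR adjusted p = 0.0123). Rps23 rose, with 2261 to 4807 CPM (median 2871) in the treated libraries and 1427, 1877 and 1955 CPM in the control libraries (log2 fold change 0.77, SE 0.19, edgeR adjusted p = 0.0273), as did Rps24 (log2 fold change 0.80, SE 0.24, edgeR adjusted p = 0.0495). Ribosomal protein genes have many processed pseudogenes, and the labels do not say how multiply mapped reads were counted.

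Several glycolytic enzymes fell: 7 of 19 glycolysis and hypoxia genes fell and 0 rose (36.8% lower, median −0.64), 5 of them shared, and all 7 are enzymes of glycolysis or lactate formation. Aldoa, aldolase, had 134 to 319 CPM (median 206) in the treated libraries and 333, 632 and 658 CPM in the control libraries (log2 fold change −1.40, SE 0.29, edgeR adjusted p = 0.0122). Pgk1, phosphoglycerate kinase, had 202 to 405 CPM (median 242) in the treated libraries and 631, 539 and 805 CPM in the control libraries (log2 fold change −1.29, SE 0.21, edgeR adjusted p = 0.00537), and Gapdh had 372 to 609 CPM (median 431) in the treated libraries and 800.3, 755 and 699 CPM in the control libraries (log2 fold change −0.77, SE 0.14, edgeR adjusted p = 0.00702). Aldoa came near to overlap, with entinostat library 2 at 319 CPM against 333 CPM in control 1. Among 17 genes that make cholesterol and fatty acids, 4 fell and 0 rose (23.5% lower, median −0.25), 2 of them shared. These were Insig1, a sterol sensor (−1.02, SE 0.18, adjusted p = 0.00729), Idi1 (−0.94, SE 0.19, adjusted p = 0.0117), Fdps (−1.22, SE 0.27, adjusted p = 0.0154) and Cyp51 (−0.92, SE 0.24, adjusted p = 0.0305), all but Insig1 enzymes of the pathway. Fdps had 21.1 to 52.2 CPM (median 35.5) in the treated libraries and 152, 57.7 and 53.5 CPM in the control libraries, so control 1 stood far above the other controls. Without control 1, 4 glycolytic genes and 1 cholesterol gene fell, against 1 and 0 without the combination group and 2 and 0 with the fibroblast covariate.

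**Figure D4:**
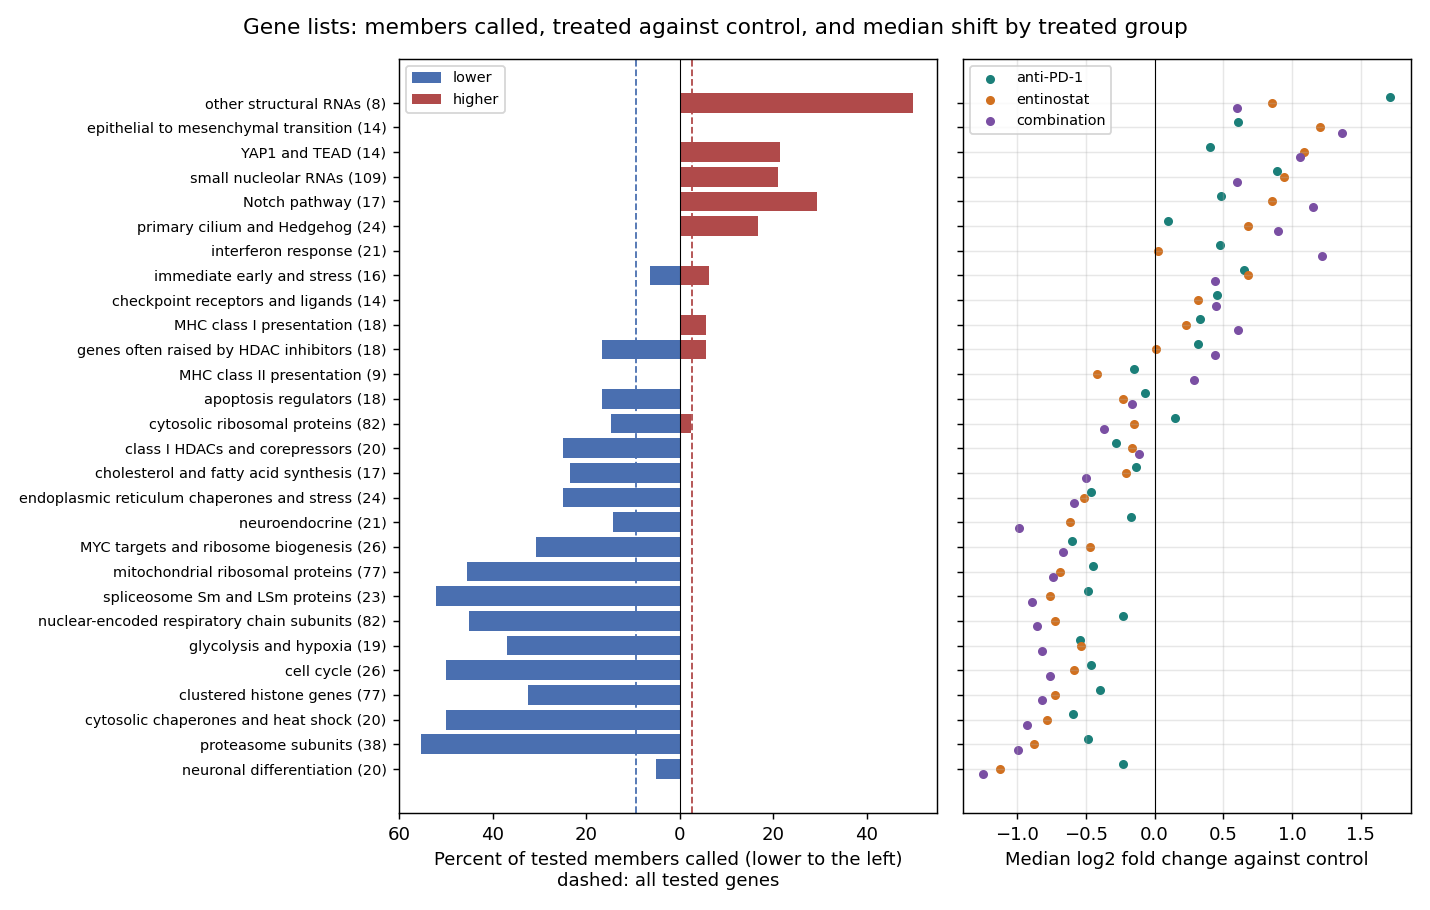
Left, for 28 pathway lists (number of tested members in brackets), the percent of members with an edgeR adjusted p under 0.05, lower in blue to the left and higher in red to the right, with dashed lines at the shares of all genes (9.25% lower, 2.59% higher). Right, the median log2 fold change against control of each list for each treated group; proteasome, chaperone, histone and cell cycle lists lie below 0 in all 3 groups, and structural RNA, snoRNA, Notch and YAP1 lists above 0.

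Some small structural RNAs rose. Of 109 small nucleolar RNAs, which guide chemical modification of ribosomal RNA, 23 rose and 0 fell (21.1% higher, against 2.59% of all genes), 18 of them shared, with a median of 0.85. Over all genes 274 of the 452 that rose were shared. Snora68 had 84.2 to 296 CPM (median 173) in the treated libraries and 28.4, 61.8 and 44.7 CPM in the control libraries (log2 fold change 1.95, SE 0.33, edgeR adjusted p = 0.00572). Snord15b had 71.2 to 148 CPM (median 109.5) in the treated libraries and 21.0, 36.9 and 44.9 CPM in the control libraries (log2 fold change 1.66, SE 0.27, edgeR adjusted p = 0.00549), and Snord104 had 31.9 to 74.9 CPM (median 47.7) in the treated libraries and 23.02, 20.4 and 27.0 CPM in the control libraries (log2 fold change 1.13, SE 0.19, edgeR adjusted p = 0.00572). None of the 3 overlapped between the groups. Of 8 other structural RNAs 4 rose and 0 fell. Rpph1, the RNA of ribonuclease P, had 51084 to 221499 CPM (median 75519.9) in the treated libraries and 38586, 50879 and 31556 CPM in the control libraries (log2 fold change 1.11, SE 0.26, edgeR adjusted p = 0.0202) and was shared, as was Rnu11, a small nuclear RNA of the minor spliceosome, with 55.03 to 195 CPM (median 94.7) in the treated libraries and 22.7, 22.3 and 45.3 CPM in the control libraries (log2 fold change 1.58, SE 0.33, edgeR adjusted p = 0.0123). Rmrp rose as well (log2 fold change 1.0, SE 0.21, edgeR adjusted p = 0.0140), but combination library 2 lay below control 3, and Rn45s, the ribosomal RNA precursor, stood at 44155 to 148731 CPM (median 56623) in the treated libraries and 26045, 60582 and 67974 CPM in the control libraries and did not pass (adjusted p = 0.504). These RNAs are short or lack a poly(A) tail, most snoRNA genes lie in introns of other genes, and the libraries were poly(A)-selected; the part of selection and counting in the result was not tested. Removing Rpph1, Rn45s and Rmrp before scaling left 2059 genes called and 1227 shared. Without control 1, 8 snoRNAs and 1 other structural RNA rose, against 10 and 4 without the combination group and 1 and 0 with the fibroblast covariate.

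Some Notch, YAP1 and stromal genes rose, and several of them overlapped between the groups. Of 17 Notch pathway genes 5 rose and 0 fell (29.4% higher, against 2.59% of all genes, median 0.80), and 2 were shared, against 274 of 452 rises over all genes. Maml2, a coactivator of Notch, had 3.66 to 10.55 CPM (median 6.09) in the treated libraries and 1.41, 2.21 and 2.48 CPM in the control libraries (log2 fold change 1.61, SE 0.31, edgeR adjusted p = 0.00996), and Heyl, a transcriptional repressor induced by Notch, had 6.48 to 24.8 CPM (median 10.46) in the treated libraries and 5.19, 4.74 and 4.20 CPM in the control libraries (log2 fold change 1.40, SE 0.41, edgeR adjusted p = 0.0485). Notch2, Notch3 and the ligand Jag2 also rose but overlapped the controls. Of 14 YAP1 and TEAD genes 3 rose and 0 fell (21.4% higher, median 0.86), 2 of them shared. Tead1, the DNA-binding partner of YAP1, had 99.4 to 191 CPM (median 132) in the treated libraries and 69.4, 54.8 and 77.9 CPM in the control libraries (log2 fold change 0.97, SE 0.21, edgeR adjusted p = 0.0144). Lats2, a kinase that restrains YAP1, had 4.73 to 13.6 CPM (median 7.01) in the treated libraries and 2.37, 4.35 and 3.67 CPM in the control libraries (log2 fold change 1.24, SE 0.37, edgeR adjusted p = 0.0495), close to the threshold. Yap1 itself had 3.01 to 31.8 CPM (median 15.99) in the treated libraries and 5.21, 4.39 and 2.56 CPM in the control libraries (log2 fold change 1.71, SE 0.49, edgeR adjusted p = 0.0418), with overlap. None of the YAP1 and TEAD genes was called without control 1 or without control 2, and 1 Notch gene was called without control 1 and 0 without the combination group. Of 14 genes of the mesenchymal transition 0 were called in edgeR, while 6 had an unadjusted p under 0.05, DESeq2 called 6 and limma voom 1, and the list's median was 1.07; fibronectin (Fn1) stood at 64.5 to 477 CPM (median 346) in the treated libraries and 91.6, 130.1 and 177 CPM in the control libraries (adjusted p = 0.0904).

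Among markers of other cells, some of fibroblasts rose. In bulk tissue fewer cells of a type and less RNA per cell cannot be told apart. Of 14 fibroblast and matrix markers 4 rose and 0 fell (28.6% higher, against 2.59% of all genes): Col6a1, Col5a1, Pdgfrb and Pdgfra. Col6a1, a chain of collagen VI, had 17.3 to 44.1 CPM (median 34.8) in the treated libraries and 8.20, 15.5 and 15.4 CPM in the control libraries (log2 fold change 1.40, SE 0.27, edgeR adjusted p = 0.00937) and was the 1 shared marker of the list. The mean log2 CPM of the 14 markers was 4.71 ± 0.55 in treated and 3.76 ± 0.34 in control libraries (SD, n = 9 and 3; exact permutation p = 0.0136, adjusted 0.136), while their summed level of 257 to 1637 CPM in treated libraries enclosed the 345 to 458 CPM of the controls. No member of the list was at 0 in any library, and 1 member rose without control 1 or without control 2 and 0 without the combination group. With this mean as a covariate 219 genes were called and 158 were shared, 153 of them among the 1233. The covariate is the mean of the fibroblast list itself, so the loss of that list's calls was largely set in advance. It was also higher on average in treated libraries, so it takes up part of the contrast. In that fit 0 genes of the Notch, YAP1 and fibroblast lists were called higher and 1 Notch gene was called lower, while the list medians were 0.90 for Notch and 1.07 for YAP1. Most calls of the other lists were lost as well, with 1 snoRNA left of 23. Evc and Evc2 kept their calls there, and Gli1 and Boc lost theirs.

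Of the other 14 marker lists, that for smooth muscle and pericytes had 1 member called, Notch3, which is also on the Notch list. The remaining 13 lists, with 121 members tested, had 0 called in edgeR and 0 in limma voom, while 3 were called in DESeq2 and 10 had an unadjusted edgeR p under 0.05. Alveolar epithelium markers had a mean log2 CPM of 3.61 ± 1.48 in treated and 1.35 ± 2.74 in control libraries (exact permutation p = 0.0818, adjusted 0.182), and summed to 92.6 to 736 CPM in treated and 66.3 to 498 CPM in control libraries. Sftpc, surfactant protein C, stood at 1.24 to 237 CPM (median 127) in the treated libraries and 0.0979, 201 and 0.557 CPM in the control libraries, so that control 2 lay near the top of the treated range and the other controls near 0. With the alveolar mean as a covariate 478 genes were called and 393 were shared. Neutrophil markers stood at 0.84 ± 1.04 in treated and −1.26 ± 2.13 in control libraries (exact permutation p = 0.0318, adjusted 0.145), and summed to 7.95 to 74.4 CPM in treated and 0.900 to 37.1 CPM in control libraries. Dendritic cell markers stood at 0.57 ± 0.46 in treated and −0.17 ± 0.50 in control libraries (p = 0.0455, adjusted 0.152, exact permutation). T cell markers stood at −0.079 ± 0.74 in treated and −0.25 ± 0.83 in control libraries (exact permutation p = 0.741, adjusted 0.780). They summed to 24.9 to 47.8 CPM in treated and 34.2 to 44.4 CPM in control libraries, and Cd3d, Cd3e, Cd3g, Cd8b1 and Cd5 had no count in at least 1 library. The alveolar and fibroblast means were both higher on average in treated libraries. Fits with them as covariates therefore do not test the part of these cells in the gene results, and it was not tested otherwise.

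Immune pathways gave 1 call. Of 18 MHC class I genes 1 rose (5.56%, against 2.59% of all genes), Nlrc5, the transactivator of that pathway. It had 1.73 to 8.65 CPM (median 2.92) in the treated libraries and 0.470, 1.24 and 0.936 CPM in the control libraries (log2 fold change 1.93, SE 0.49, edgeR adjusted p = 0.0279), with shifts of 1.73 (anti-PD-1), 1.5 (entinostat) and 2.57 (combination). Its call was lost without control 1, without control 3 and without entinostat library 2. The 9 MHC class II, 21 interferon response and 14 checkpoint genes had 0 calls in edgeR and limma voom, at median log2 fold changes of 0.10, 0.58 and 0.36. At an unadjusted edgeR p under 0.05 they had 0, 4 and 1 genes, and DESeq2 called 0, 2 and 0. Cd274, which encodes the PD-1 ligand PD-L1, stood at 3.63 to 6.92 CPM (median 4.41) in the treated libraries and 1.29, 3.93 and 3.52 CPM in the control libraries (adjusted p = 0.249). Pdcd1, the gene of PD-1 itself, had at most 32 counts in a library, with 0 to 0.969 CPM (median 0.503) in the treated libraries and 0, 0.642 and 0.152 CPM in the control libraries, and no change was detectable at this depth. Lyz2, a macrophage gene, stood at 170.5 to 997 CPM (median 454) in the treated libraries and 239, 492 and 245 CPM in the control libraries (adjusted p = 0.461).

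The targets of entinostat were lower in every treated library, antibody alone included. Of 20 class I HDACs and corepressors 5 fell and 0 rose (25.0% lower, against 9.25% of all genes; median −0.24, and 2 higher and 2 lower with upper quartile factors), and all 5 were shared. Hdac1 had 53.4 to 81.3 CPM (median 63.1) in the treated libraries and 98.3, 94.3 and 86.7 CPM in the control libraries (log2 fold change −0.48, SE 0.13, edgeR adjusted p = 0.0371), Hdac2 had 105 to 137 CPM (median 127) in the treated libraries and 278, 142 and 191 CPM in the control libraries (log2 fold change −0.73, SE 0.17, edgeR adjusted p = 0.0189), and Hdac3 had 66.5 to 83.2 CPM (median 72.2) in the treated libraries and 109, 114 and 97.3 CPM in the control libraries (log2 fold change −0.56, SE 0.12, edgeR adjusted p = 0.0126). The shifts were −0.66 (anti-PD-1), −0.34 (entinostat) and −0.45 (combination) for Hdac1, and −0.52 (anti-PD-1), −0.62 (entinostat) and −0.55 (combination) for Hdac3. Rbbp4 and Rbbp7, histone-binding subunits of the same complexes, fell by 0.88 (SE 0.19) and by 0.85 (SE 0.18) on the log2 scale. Hdac3 kept its call in all 12 leave-one-out fits, Hdac2, Rbbp4 and Rbbp7 lost theirs without control 1, and Hdac1 was called in 4 of the 12. With upper quartile factors none of Hdac1, Hdac2 and Hdac3 was called, and without the combination group or with the fibroblast covariate 0 of the 20 were. Of 18 genes often raised by HDAC inhibitors 1 rose and 3 fell (5.56% and 16.7%, against 2.59% and 9.25% of all genes). Mt1, a metallothionein, rose, with 18.4 to 40.9 CPM (median 32.9) in the treated libraries and 6.56, 11.7 and 17.3 CPM in the control libraries (log2 fold change 1.43, SE 0.33, edgeR adjusted p = 0.0196) and shifts of 1.45 (anti-PD-1), 1.46 (entinostat) and 1.39 (combination), and lost its call without control 1 or without control 2. The falls were H1f0, Hist1h1c and Hist1h2bk; Hist1h1c had 218 to 418 CPM (median 281) in the treated libraries and 577, 475 and 716 CPM in the control libraries (log2 fold change −0.99, SE 0.16, edgeR adjusted p = 0.00537).

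Apoptosis and stress genes gave few calls. Of 18 apoptosis regulators 3 fell and 0 rose (16.7% lower, against 9.25% of all genes), all shared, and the list's median of −0.11 turned to 0.10 with upper quartile factors. The proapoptotic Bax had 33.1 to 53.7 CPM (median 39.4) in the treated libraries and 78.2, 59.4 and 59.0 CPM in the control libraries (log2 fold change −0.68, SE 0.15, edgeR adjusted p = 0.0140), and Bid, also proapoptotic, fell by a similar amount (log2 fold change −0.80, SE 0.18, edgeR adjusted p = 0.0179). Both lost their call without control 1, and without the combination group 0 of the 18 were called. Of 16 immediate early genes 1 fell and 1 rose (6.25% each, against 9.25% lower and 2.59% higher over all genes). Jun fell, with 18.7 to 49.97 CPM (median 34.3) in the treated libraries and 64.0, 58.7 and 79.8 CPM in the control libraries (log2 fold change −1.0, SE 0.17, edgeR adjusted p = 0.00572) and shifts of −0.48 (anti-PD-1), −1.03 (entinostat) and −1.48 (combination). Fosl2, an AP-1 partner of Jun, rose, with 14.0 to 19.7 CPM (median 15.5) in the treated libraries and 11.6, 7.64 and 7.03 CPM in the control libraries (log2 fold change 0.89, SE 0.20, edgeR adjusted p = 0.0172). Both separated the groups completely; Jun kept its call in all 12 leave-one-out fits, and Fosl2 lost it without control 2 or without control 3.

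A few neuroendocrine genes fell, and none of them was shared. Of 21 neuroendocrine genes 3 fell and 0 rose (14.3% lower, against 9.25% of all genes), with a list median of −0.57 that was −0.17 (anti-PD-1), −0.61 (entinostat) and −0.98 (combination). Syp, synaptophysin, had 20.5 to 64.6 CPM (median 35.7) in the treated libraries and 205, 72.7 and 57.0 CPM in the control libraries (log2 fold change −1.48, SE 0.37, edgeR adjusted p = 0.0249), with control 1 far above the other controls, and the call was lost without it. Scg5, a chaperone of secretory granules, had 18.6 to 112 CPM (median 29.5) in the treated libraries and 75.8, 141 and 117 CPM in the control libraries (log2 fold change −1.53, SE 0.26, edgeR adjusted p = 0.00572), and anti-PD-1 libraries 1 and 3 overlapped the controls. Stmn3, a neuronal microtubule regulator, was the 1 gene of 20 on the neuronal list to fall (5%, against 9.25% of all genes), with 27.8 to 166 CPM (median 49.4) in the treated libraries and 412, 199 and 132 CPM in the control libraries (log2 fold change −1.98, SE 0.29, edgeR adjusted p = 0.00375). Its shifts were −0.98 (anti-PD-1), −2.45 (entinostat) and −2.51 (combination), and anti-PD-1 library 3 lay inside the control range.

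Transcript length differed between the shared higher and lower genes. The median longest annotated transcript was 4814 bases for the 266 shared higher genes with a length, 2428 bases for the 958 shared lower genes and 3168 bases for all genes tested. In the quartile of genes with the longest transcripts 3.22% were shared and higher and 1.49% shared and lower. In the quartile with the shortest, 1.03% were shared and higher and 7.92% shared and lower. The length contrast was 2.19 ± 0.11 in treated and 1.96 ± 0.19 in control libraries (log2 CPM, SD, n = 9 and 3; exact permutation p = 0.0364, adjusted 0.145), with 1.92 in anti-PD-1 library 3 and 1.75 in control 2, the lowest of the 12. Its part in the gene results was not tested.

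**Figure D5:**
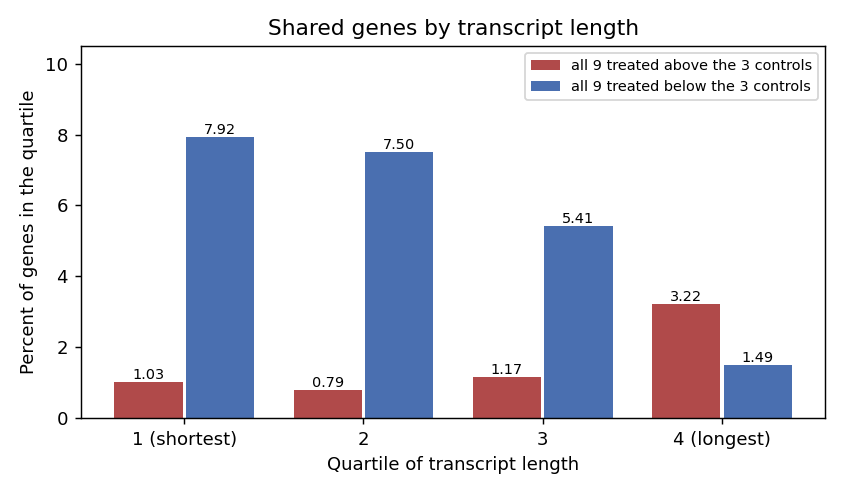
Percent of the genes in each quartile of annotated transcript length that were shared and higher (red) or shared and lower (blue). The share of higher genes is 3.22% in the longest quartile and at most 1.17% in the others, and the share of lower genes is 7.92% in the shortest quartile and 1.49% in the longest.

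The balance of direction depended on the scaling. With TMM factors 21.9% of the called genes were higher; with upper quartile factors 50.9% of 1309 were, 666 higher and 643 lower, and 463 of the shared genes were higher and 405 lower. Over all genes the median log2 fold change became 0.22, against 0.02 with TMM. List medians moved by about as much: the proteasome list to −0.59, the cell cycle list to −0.45 and the MYC list to −0.37, with 10, 5 and 5 genes lower. The mitochondrial ribosomal list then had 10 genes lower, the histone list 13 and the snoRNA list 28 higher. Thinning all libraries to the lowest total, which removes the difference in depth, called 2008 genes, and 1210 were shared, 1159 of them among the 1233.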

How the data were processed

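The authors deposited 1 table of raw counts, labelled TPMcalculator, with 22738 gene rows and 12 library columns. Per the labels' protocols, RNA from frozen tumour was made into poly(A)-selected libraries. The submitters' processing notes name STAR 2.5.4a, Trimmomatic 0.36, Trim Galore, R 3.5.1, DESeq2 1.22.2 and build mm9, without their roles. Annotation, strand setting and treatment of multiply mapped reads were not given in the sources used here. In the table, 455 rows carry a suffix for a further locus of a symbol and were kept apart. Between 65.3% and 77.2% of counts from 1 to 20 are even; no label says whether both mates of a pair were counted. Total counts ranged from 31.3 to 54.0 M (1000000 counts), at which the spread between libraries, not counting error, sets the precision for all but the lowest genes. No pair of the 66 library pairs was alike within sampling noise: the smallest chi-square per degree of freedom was 32.6.

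In R 4.3.3, edgeR 4.0.16 fitted a mean per group to the 17426 genes that passed filterByExpr, with TMM scaling and robust quasi-likelihood F tests, adjusted by Benjamini-Hochberg over all genes. Treated against control is the mean of the 3 treated group means minus the control mean, on the log2 scale, and a positive value is higher in treated tumours. Other tests were the difference among the treated groups and each group against the mean of the other 3. CPM values are TMM-scaled. Named shared genes are the 12 higher and 12 lower ones with the largest shift in the least shifted treated group, at a mean log2 CPM (prior count 2) of at least 1, skipping predicted genes, immune receptor segments and suffixed rows. From each of 43 lists up to 4 called members, else up to 2 of the highest expression, were taken, plus 15 genes such as Myc and Hdac1; a few further members of the lists, such as Nop58, Mcm7, Heyl, Rps23 and Rps24, were named after their values were seen. Not all genes the rule names are printed. Members, lists and rules were chosen with earlier results of these data known. Single library values were tested by exact permutation over 220 splits. Alternatives were other scalings, filters, DESeq2 1.42.0, limma 3.58.1 voom, a replicate block, a pooled treated group, thinned counts, covariates and leaving out each library or group. The scripts were tested on simulated data.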

Additional observations from a re-analysis of the deposited data

Results flagged for a closer look

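Among 44 sets of 9 treated values tested for a library far from the others, 5 were marked; chance marks about 1 in 20 such sets, and no explanation was tested. Akr1b3 stood at 15.6 CPM in combination library 3, against 39.0 CPM in the nearest treated library, so its fall was larger there than elsewhere. The share of counts in Rpph1, Rn45s and Rmrp was 36.4% in anti-PD-1 library 2, against 25.6% in anti-PD-1 library 1, the next highest. In the same library 77.2% of counts between 1 and 20 were even numbers, against 70.9% in entinostat library 3. The length contrast, the mean log2 CPM of the longest minus the shortest quartile of transcripts, was 1.92 in anti-PD-1 library 3, against 2.15 in the nearest treated library. Tuft-like markers had a mean log2 CPM of 2.92 in combination library 3, against 1.62 in the nearest treated library, anti-PD-1 library 3.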

How the results depend on the processing

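The count of 2064 genes for treated against control was 1309 with upper quartile factors, 3441 with DESeq2, 478 with the alveolar score as a covariate, 651 without the entinostat group and 391 without the combination group. With the replicate number as a block it was 1324. The numbers came from titles, and whether they pair samples cannot be settled from 3 libraries per group. Same-numbered libraries of different groups had a median correlation of deviations of −0.07 (8 of 18 pairs over 0.1). Other pairs had a median of −0.06 (11 of 36 over 0.1). Leaving out 1 library gave 748 (without control 1) to 2244 genes. The count of 1233 shared genes was 393 with the alveolar covariate and 668 to 1698 without 1 library. Without the anti-PD-1, entinostat or combination group it was 2259, 590 or 380, of which 1130, 563 and 370 were among the 1233. The one-sided condition is easier to meet with fewer libraries. It held for 9.26% of tested genes with all libraries and for 9.36% to 17.5% without 1 library. Without the anti-PD-1, entinostat or combination group it held for 21.6%, 11.6% and 11.3%. With a fibroblast covariate, added after the data were seen, the counts were 219 and 158; with halved counts, added too, 2075 and 1214. The difference among treated groups gave 0 genes except in DESeq2 (289). Each group against the rest gave 6 (upper quartile) and 124 (library totals) for the combination and 1309 for control (upper quartile); beyond RLE factors, no other alternative was run for these contrasts. Pdcd1 turned to −0.019 without control 1 (−0.019 to 2.38 when 1 library was left out) and to −0.72 with the fibroblast covariate, Rb1 to −0.047 without the anti-PD-1 group and Rn45s to −0.28 with the fibroblast covariate; none of these genes was called, and the cause was not tested. Over 115 named genes and all settings, 2915 of 3331 values kept direction and call, 412 kept direction only and 0 gained a call. Of these genes 110 were already called before any setting was changed, so only Cd274, Pdcd1, Rb1, Rn45s and Trp53 could gain a call. Other uncalled named genes, such as Fn1 and Sparc, were left out of this count, so it does not test whether uncalled genes gain calls. Each arm has 3 libraries, so 1 control library can decide a call; depth limits genes with few counts, such as Pdcd1.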
